A study of Homo sapiens with 12 samples.

Results

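Regulators of fetal globin silencing were followed by RNA-seq in HUDEP-2, a human line of immortalised erythroid precursors derived from umbilical cord blood. The 9 genes are BCL11A, ZBTB7A, MYB, KLF1, SOX6, NFIA, NFIX, HIC2 and LIN28B, and they were taken by symbol from the 54628 genes of the deposited count table. All 9 were listed, and all 9 were among the 15492 genes that passed the filter on low counts. The cells carried dCas9-KRAB, a repressor protein steered to a DNA element by a guide RNA, with either a scrambled guide (sgControl) or a guide to an element upstream of EGR1 (sgEGR1). They had been infected with lentivirus and sorted for GFP as a population, not as clones. Each culture had grown with dexamethasone, SCF, erythropoietin and doxycycline, was then starved of growth factors for 5 h, and received either PBS or 50 ng/mL of stem cell factor (SCF, the ligand of the Kit receptor) for 1 h. The 4 groups (sgControl PBS, sgControl SCF, sgEGR1 PBS and sgEGR1 SCF) held 3 replicates each, which the study's methods call biological.

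Red cells switch from fetal to adult haemoglobin when repressors close the gamma-globin genes HBG1 and HBG2. BCL11A and ZBTB7A bind the gamma-globin promoters and recruit corepressor complexes, and SOX6 acts with BCL11A. KLF1 and MYB act upstream of them as activators of erythroid repressor genes, with KLF1 also driving the adult gene HBB directly. NFIA and NFIX are nuclear factor I proteins linked to the adult programme. HIC2 and LIN28B belong to the fetal side, HIC2 as a repressor of BCL11A transcription and LIN28B as an RNA-binding protein that lowers BCL11A protein production and blocks let-7 maturation. HUDEP-2 cells are widely used for this switch because they make mostly adult globin.

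The sgEGR1 guide is shown because every contrast between guides rests on it, with the adjoining PAM in capitals.
sgEGR1: ggatgacagcgatagaacccCGG
The sgEGR1 guide matched the plus strand at chr5:138464830-138464849 (hg38), 640 bases before the annotated start of EGR1 and outside the gene. The study places the targeted element farther from the start of EGR1 than this match. EGR1 itself, an immediate early transcription factor, stood at 10.9, 5.99 and 7.45 CPM (counts per megacount of library total, after TMM scaling) in sgControl PBS replicates 1, 2 and 3 and at 2.04, 1.12 and 0.977 CPM in sgEGR1 PBS. After SCF it stood at 208, 239 and 171 CPM in sgControl cells and at 40.4, 57.4 and 204 CPM in sgEGR1 cells. The library labelled sgEGR1 SCF replicate 3 therefore lay within the sgControl SCF range, against its label, and the regulators' values that rest on it are also given without it. EGR1 was lower in sgEGR1 than in sgControl cells by 2.59 on the log2 scale after PBS (adjusted p = 0.999, unadjusted p = 0.00721) and by 1.03 after SCF (adjusted p = 1.00, unadjusted p = 0.0406). DESeq2 called EGR1 after PBS (-2.56, adjusted p = 0.0381). Without that library the SCF difference was -2.08 (adjusted p = 0.0189), and with the term for replicate 1 added EGR1 was called under both treatments (-2.60, adjusted p = 0.0161, with PBS and -2.08, adjusted p = 0.00122, with SCF). That library was picked out by its EGR1 value, so the larger SCF difference without it follows from the choice and is no independent test. The fit with both changes was chosen after the data were seen.

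Library totals ran from 23.5 to 32.04 megacounts. In each group the replicate 1 library lay away from the other 2, and edgeR called 26.6% of all genes between replicate 1 and the rest. What the numbers stand for is not given in the labels, so the main comparisons were also made with a term for replicate 1 in the fit. All 8 erythroid markers summed here (GATA1, TAL1, EPOR, KIT, TFRC, SLC4A1, ALAS2 and EPB42) were above 1 CPM in every library, with a summed level of 7351 to 7656 CPM in sgControl PBS, 7016 to 7432 in sgControl SCF, 7426 to 7905 in sgEGR1 PBS and 6679 to 7482 in sgEGR1 SCF. Of 5 megakaryocyte markers 1 reached 1 CPM, and GP9, PF4 and PPBP were at 0 in all libraries. Among 6 myeloid markers SPI1 alone reached 1 CPM, and MPO and ELANE were at 0. No lymphoid marker of 4 reached 1 CPM. Of 4 stromal and epithelial markers EPCAM and KRT19 were detected, with a summed level between 209 and 225 CPM over all groups, and COL1A2 was at 0. These are bulk libraries, in which fewer cells of a type and less RNA per cell cannot be told apart.

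**Figure D1:**
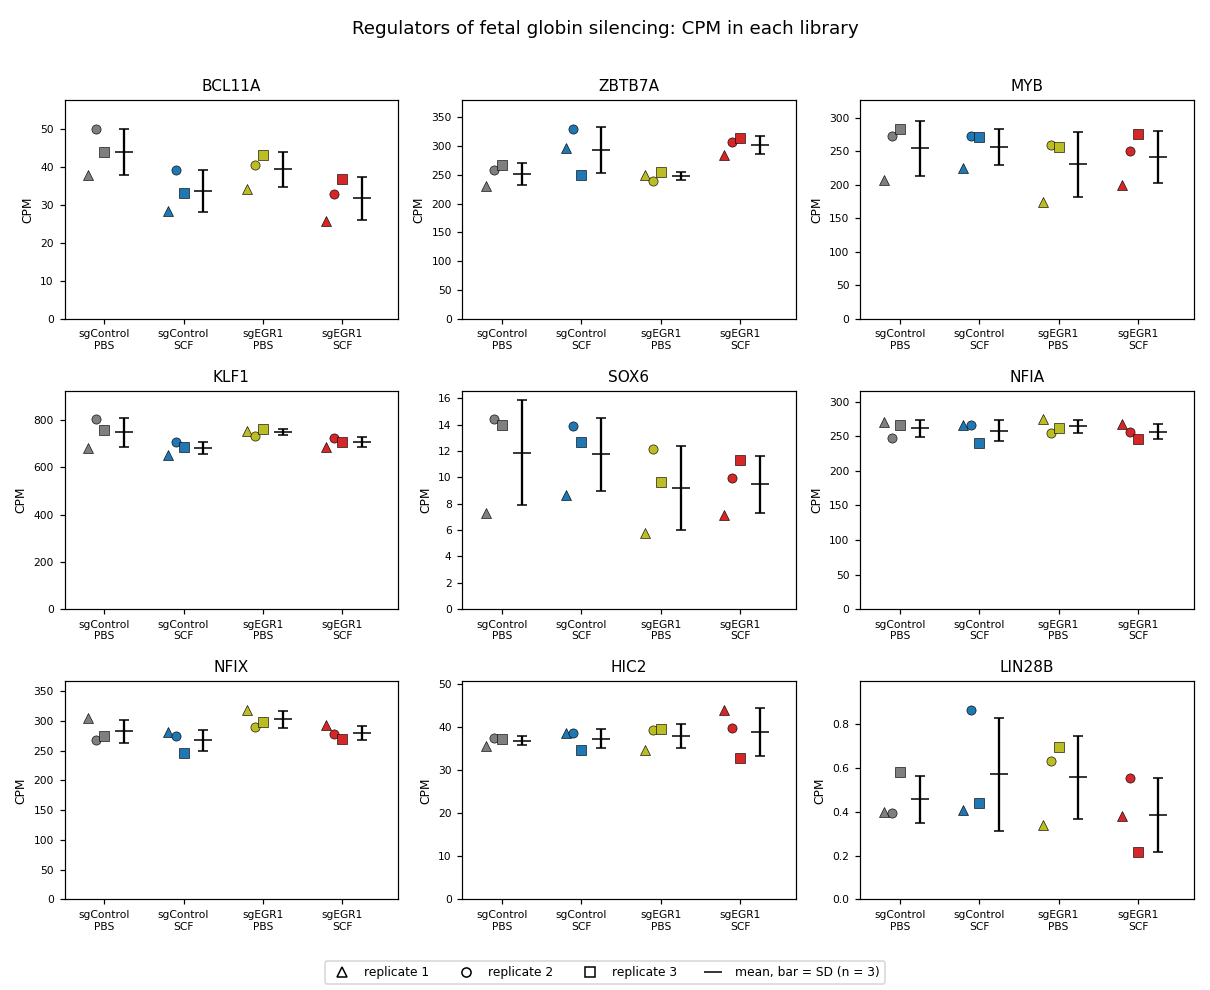
CPM of each regulator (vertical axes, linear and from 0) in the 12 libraries, with 1 panel per gene and 1 column per group. Triangles are replicate 1, circles replicate 2 and squares replicate 3, and the bars are the mean and SD of 3 libraries. BCL11A is lower after SCF under both guides and its replicate 1 points lie lowest in every group, as do those of MYB and SOX6.

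The levels of the regulators spanned a wide range once divided by gene length. Per kilobase of annotated exon, KLF1 stood highest at 447 ± 26.4 CPM (SD over the 12 libraries, which mix the 4 groups). MYB at 44.7 ± 6.47, NFIX at 43.6 ± 2.97 and ZBTB7A at 40.6 ± 4.75 CPM per kilobase followed, and on this scale these 3 neighbours did not differ beyond their spread. HIC2 at 5.20 ± 0.410 and NFIA at 4.38 ± 0.183 CPM per kilobase came next, with overlapping ranges of 4.53 to 6.06 and 4.05 to 4.62. BCL11A stood at 1.52 ± 0.280, SOX6 at 0.526 ± 0.147 and LIN28B at 0.0829 ± 0.0302 CPM per kilobase, each below the whole range of the one before it. The place of BCL11A depended on the length used. Its exons add up to 24514 bases over 27 annotated transcripts, the longest of which has 6102, and per kilobase of that longest transcript its level was 6.10 ± 1.13 CPM, in the fifth place and above NFIA and HIC2. The length left the other neighbours in order, except that HIC2 then stood below NFIA. The low place of NFIA rests on its long annotation, with 59428 exon bases and a longest transcript of 44880. Undivided, its mean was 260 CPM, near MYB at 246 and ZBTB7A at 274. Which transcripts the cells made was not tested.

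**Figure D2:**
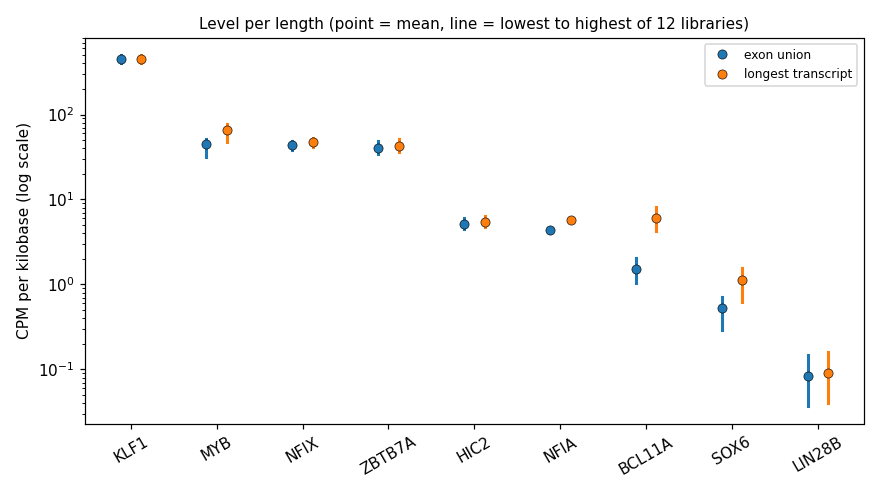
CPM per kilobase (log axis) of each regulator, divided by the union of its annotated exons (blue) or by its longest annotated transcript (orange). Points are means and lines run from the lowest to the highest of the 12 libraries. KLF1 lies at 447 on both scales, and BCL11A moves from 1.52 to 6.10.

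LIN28B, the fetal-stage RNA-binding protein (chr6:104936616-105083332, plus strand), was close to the limit of detection. Its 12 libraries held 7 to 26 counts each, all above the floor of 3 counts. Between groups its total was 36 counts in sgControl PBS, 53 in sgControl SCF, 45 in sgEGR1 PBS and 34 in sgEGR1 SCF. None of its contrasts passed the test, and the intervals were wide (-0.668 to 1.29 on the log2 scale for SCF in sgControl cells). An exon of the antisense gene LIN28B-AS1 shares 147 bases with it, and the use of strand in counting was not stated.

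BCL11A, the main repressor of gamma-globin (chr2:60450520-60554467, minus strand), was lower after 1 h of SCF under both guides. In sgControl cells it stood at 37.9, 50.1 and 43.98 CPM in PBS replicates 1, 2 and 3 and at 28.5, 39.4 and 33.2 CPM in the SCF replicates. In sgEGR1 cells it stood at 34.4, 40.6 and 43.4 CPM after PBS and at 25.7, 32.9 and 36.8 CPM after SCF. The groups overlapped under each guide, since SCF replicate 2 of sgControl and SCF replicate 3 of sgEGR1 lay above PBS replicate 1. Within replicate 1 the range over both guides was 34.4 to 37.9 CPM after PBS and 25.7 to 28.5 after SCF. Within replicates 2 and 3 it was 40.6 to 50.1 after PBS and 32.9 to 39.4 after SCF. These ranges rest on 2 and 4 libraries per treatment, and the share of all genes without overlap in such a split was not taken. The log2 fold change was -0.39 ± 0.152 (SE, 1.31-fold lower) in sgControl cells with an adjusted p of 0.253, and -0.31 ± 0.153 (1.24-fold lower) in sgEGR1 cells with an adjusted p of 0.371, neither of which passed. The term for replicate 1 gave -0.39 ± 0.0728 (adjusted p = 0.00525) and -0.32 ± 0.0737 (adjusted p = 0.0189), and both passed. From replicates 2 and 3 alone they were -0.37 (adjusted p = 0.0642) and -0.27 (adjusted p = 0.148). Over 19 alternatives the adjusted p ran from 0.00525 to 0.584 in sgControl cells and from 0.0189 to 0.665 in sgEGR1 cells, with a negative value in all 19 of each. In sgEGR1 cells the value was -0.43 when the library labelled sgEGR1 SCF replicate 3 was dropped (adjusted p = 0.310), and -0.38 (adjusted p = 0.0169) when the term for replicate 1 was added. No exon of another annotated gene overlaps those of BCL11A. By quantitative PCR in control and edited HUDEP-2 cells, the study describes an SCF response of BCL11A, examined as upregulation. It was weaker after deletion of an element upstream of BCL11A. That was another assay on other cultures, and no rise of BCL11A was seen in these libraries.

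ZBTB7A, also called LRF, is the second repressor that binds the gamma-globin promoters (chr19:4043303-4066899, minus strand), and it was higher after SCF in 5 of 6 comparisons of an SCF library with the PBS mean of its guide. In sgControl cells it stood at 230, 258 and 268 CPM after PBS and at 297, 329.8 and 250.5 CPM after SCF, where SCF replicate 3 lay inside the PBS range. Under sgEGR1 it stood at 249, 240.0 and 255 CPM after PBS and at 285, 307 and 314 CPM after SCF, with no overlap. The log2 fold change was 0.22 ± 0.0873 (SE, 1.16-fold, adjusted p = 0.270) in sgControl cells and 0.28 ± 0.0873 (1.22-fold, adjusted p = 0.126) in sgEGR1 cells. Neither passed. After the term for replicate 1 was added, the sgEGR1 value was 0.28 ± 0.0790 (adjusted p = 0.0445) and passed, and the sgControl value of 0.22 ± 0.0790 (adjusted p = 0.120) did not. Over 19 alternatives the adjusted p ran from 0.0598 to 0.628 in sgControl cells and from 0.0337 to 0.328 in sgEGR1 cells. In sgEGR1 cells the value was 0.26 when the library labelled sgEGR1 SCF replicate 3 was dropped (adjusted p = 0.315), and 0.27 (adjusted p = 0.125) with the term for replicate 1 as well, so the call with the term was lost without that library.

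The promoter windows of ZBTB7A (RefSeq, GRCh38.p14, 250 bases before to 50 after each annotated start) are shown because both hold the EGR motif GCGTGGG, in capitals below, and ZBTB7A was the regulator with the highest SCF fold change of those above 1 CPM. The first window is chr19:4066850-4067149 and the second chr19:4065480-4065779, both on the minus strand and written 5′ to 3′.
ZBTB7A first start: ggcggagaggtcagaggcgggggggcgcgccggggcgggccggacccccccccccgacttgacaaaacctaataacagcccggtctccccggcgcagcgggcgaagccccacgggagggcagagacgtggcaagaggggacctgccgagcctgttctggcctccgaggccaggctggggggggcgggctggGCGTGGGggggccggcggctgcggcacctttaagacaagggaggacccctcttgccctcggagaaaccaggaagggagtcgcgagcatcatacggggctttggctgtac
ZBTB7A second start: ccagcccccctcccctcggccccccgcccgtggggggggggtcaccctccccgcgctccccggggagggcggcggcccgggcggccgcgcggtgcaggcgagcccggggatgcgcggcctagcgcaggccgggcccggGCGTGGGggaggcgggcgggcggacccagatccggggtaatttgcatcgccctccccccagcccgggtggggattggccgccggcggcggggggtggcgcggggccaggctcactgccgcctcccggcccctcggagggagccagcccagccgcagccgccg
The match began 59 bases before the first start and 112 bases before the second. A set of 5 motifs was searched on both strands of the 25 windows of the 9 regulators, namely TGANTCA for AP-1, GCGTGGG for EGR, CCGGAAG for ETS, AGATAA for GATA and CCACACCC for KLF1. They occur in 7.71%, 6.98%, 10.3%, 10.3% and 3.28% of the 35116 promoter windows of the table, in that order, and no matches overlapped one another in the regulators' windows. Any of them was present in 6 of the 25 windows. The share of all windows with any of the 5 was not taken, so this count has no baseline. Some windows of the same gene overlap, as for NFIX, so the windows are not separate observations. Beside the ZBTB7A pair, a SOX6 window held the AP-1 letters 107 bases before its start and another SOX6 window the GATA letters, 1 of 3 NFIA windows held the KLF1 letters, and 1 of 2 LIN28B windows held the GATA letters at 2 places. None of the 5 BCL11A windows, nor the windows of MYB, KLF1, NFIX and HIC2, held these letters. These matches describe sequence only.

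KLF1, the erythroid Krüppel-like activator of HBB and BCL11A (chr19:12884422-12887201, minus strand), was not called for SCF under either guide. In sgControl cells it stood at 684, 804 and 759 CPM after PBS and at 654, 706 and 685 CPM after SCF, with overlap. Under sgEGR1 it stood at 753, 735 and 762 CPM after PBS and at 685, 726 and 709 CPM after SCF, all below the PBS libraries. The log2 fold change was -0.13 ± 0.0562 (SE, adjusted p = 0.288, unadjusted p = 0.0337) in sgControl cells and -0.09 ± 0.0562 (adjusted p = 0.538) in sgEGR1 cells. The same values with the term for replicate 1 were -0.13 (adjusted p = 0.0672) and -0.09 (adjusted p = 0.236). KLF1 and ZBTB7A were the 2 regulators of 9 with no overlap between PBS and SCF in sgEGR1 cells, where 21.2% of all genes had none. In sgControl cells 0 of 9 had none, against 19.6% of all genes.

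MYB, a transcription factor of erythroid progenitors (chr6:135181308-135219173, plus strand), did not differ between treatments beyond the spread. It stood at 207, 273 and 283 CPM in sgControl PBS and at 225, 273 and 271 CPM in sgControl SCF. Under sgEGR1 it was at 174, 259 and 257 CPM after PBS and at 199, 249.9 and 276 CPM after SCF. In every group replicate 1 was the low library. The 95% interval of its SCF log2 fold change was -0.352 to 0.374 in sgControl cells and -0.295 to 0.432 in sgEGR1 cells, and with the term for replicate 1 it narrowed to -0.0935 to 0.134 and -0.0364 to 0.192. An exon of MYB-AS1 on the opposite strand shares 103 bases with it.

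NFIA and NFIX were not called for SCF under either guide by edgeR. NFIA (chr1:60865259-61462788, plus strand) ranged from 241 to 275 CPM over the 12 libraries. Its SCF log2 fold change had a 95% interval of -0.139 to 0.102 in sgControl cells and -0.164 to 0.0772 in sgEGR1 cells. NFIX (chr19:12995475-13098796, plus strand) stood at 305, 268 and 274 CPM in sgControl PBS, 281, 275 and 247 in sgControl SCF, 319, 290.2 and 299 in sgEGR1 PBS and 293, 277 and 269.8 in sgEGR1 SCF. The NFIX intervals were -0.221 to 0.0594 in sgControl cells and -0.253 to 0.0273 in sgEGR1 cells. With the term for replicate 1 its sgEGR1 value was -0.11 ± 0.0391 (SE, adjusted p = 0.1001), and DESeq2 with that term called it (-0.12, adjusted p = 0.0433). Each sgEGR1 SCF library lay below the PBS library of its number for NFIX, with ratios of 0.917, 0.956 and 0.903. How many of all genes do so was not counted. NFIA stood at 270.4, 247 and 267 CPM in sgControl PBS and at 267, 267 and 241 in sgControl SCF. It stood at 275, 256 and 263 CPM in sgEGR1 PBS and at 268, 256 and 246 in sgEGR1 SCF, so all groups overlapped. An unnamed long noncoding RNA gene on the opposite strand shares 67 exon bases with NFIX.

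HIC2, the fetal-stage repressor of BCL11A (chr22:21417371-21451463, plus strand), did not differ between treatments beyond its spread. It stood at 35.7, 37.5 and 37.3 CPM in sgControl PBS and at 38.6, 38.5 and 34.7 in sgControl SCF. The sgEGR1 libraries stood at 34.6, 39.4 and 39.5 CPM after PBS and at 43.97, 39.7 and 32.8 after SCF, the widest spread of the 4 groups. The 95% interval of its SCF log2 fold change was -0.190 to 0.225 in sgControl cells and -0.171 to 0.244 in sgEGR1 cells.

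Without the library that goes against its label, the SCF log2 fold changes in sgEGR1 cells were -0.09 ± 0.0670 (SE) for KLF1, -0.03 ± 0.185 for MYB and -0.11 ± 0.350 for SOX6. They were -0.01 ± 0.0608 for NFIA, -0.08 ± 0.0720 for NFIX, 0.15 ± 0.0793 for HIC2 and -0.26 ± 0.481 for LIN28B, and none of these passed. MYB and SOX6 thereby changed sign from 0.07 and 0.04. With the term for replicate 1 as well, none of these 7 genes passed, and NFIX stood at -0.10 (adjusted p = 0.234) and HIC2 at 0.15 (adjusted p = 0.303).

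**Figure D3:**
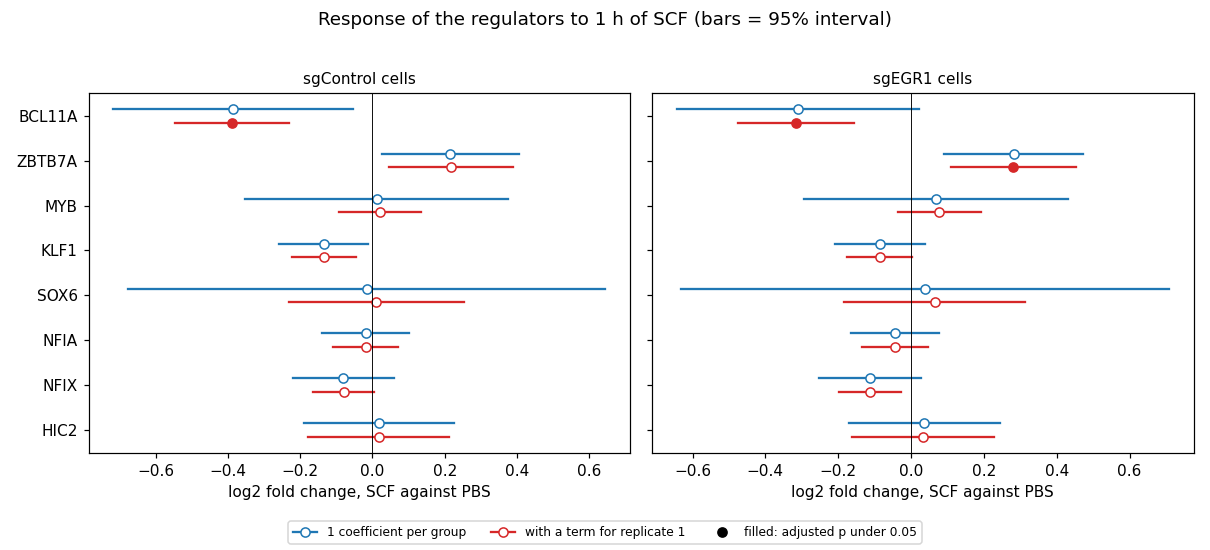
Log2 fold change of SCF against PBS (horizontal axes) for the 8 regulators above 1 CPM in sgControl cells (left) and sgEGR1 cells (right). Blue points come from the fit with 1 coefficient per group and red points from the fit with a term for replicate 1, lines are 95% intervals, and filled points have an adjusted p under 0.05. BCL11A is filled under both guides and ZBTB7A in sgEGR1 cells, in the red fit only.

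Counted over the 9 regulators, edgeR called 0 for SCF in sgControl cells, where it called 2.89% of all genes, and 3 of 9 (BCL11A, ZBTB7A and KLF1) had an unadjusted p under 0.05. In sgEGR1 cells it called 0 of 9, where it called 2.59% of all genes, with ZBTB7A alone under an unadjusted p of 0.05. The share of all genes under an unadjusted p of 0.05 was not taken, here or below, so such counts have no baseline. DESeq2 called 0 of 9 in sgControl cells and ZBTB7A in sgEGR1 cells, where it called 6.35% of all genes with an adjusted p. With the term for replicate 1, 1 of 9 was called in sgControl cells, where 8.32% of all genes were, and 2 of 9 in sgEGR1 cells, where 8.56% were. The median log2 fold change of the 9 was -0.02 in sgControl and -0.04 in sgEGR1 cells, and over all genes it was -0.01 and -0.0005. Other fits that called a regulator called the following shares of all genes. The replicate block called 7.64% in sgControl and 7.97% in sgEGR1 cells. The fit of only the groups compared called 1.70% in sgEGR1 cells, and the fit without sgControl SCF replicate 3 called 2.41% there. The term for replicate 1 without the library labelled sgEGR1 SCF replicate 3 called 7.49% and 4.92%, and the term with DESeq2 called 10.4% and 11.5%, in sgControl and sgEGR1 cells.

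SOX6, an SRY-related factor that acts with BCL11A at the gamma-globin genes (chr11:15966449-16739591, minus strand), had the lowest fold change of the 8 regulators above 1 CPM between guides. It stood at 7.30, 14.4 and 14.0 CPM in sgControl PBS and at 5.79, 12.2 and 9.63 CPM in sgEGR1 PBS. After SCF it stood at 8.66, 13.9 and 12.7 CPM in sgControl and at 7.11, 9.95 and 11.3 CPM in sgEGR1 cells. Each sgEGR1 library lay below the sgControl library of the same treatment and replicate number, although the groups overlapped. How many of all genes keep 1 direction in this way was not counted. The log2 fold change of sgEGR1 against sgControl was -0.36 ± 0.307 (SE, adjusted p = 0.999) after PBS and -0.31 ± 0.304 (adjusted p = 1.00) after SCF. With the term for replicate 1 it was -0.36 ± 0.114 (unadjusted p = 0.00718, adjusted p = 0.306) and -0.31 ± 0.112 (unadjusted p = 0.0162, adjusted p = 0.751), and neither passed. After SCF it was -0.47 when the library labelled sgEGR1 SCF replicate 3 was left out (adjusted p = 1.00). SOX6 did not respond to SCF beyond its spread, with intervals of -0.676 to 0.644 in sgControl and -0.632 to 0.708 in sgEGR1 cells. The microRNA gene MIR6073 on the same strand shares 89 exon bases with it.

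For the guide, 0 of the 9 regulators were called by edgeR after PBS or after SCF, where 0% of all genes were called, and DESeq2 also called 0 of 9 in both. None had an unadjusted p under 0.05 in either comparison. With the term for replicate 1, 0 of 9 were called where 0.0258% and 0.0129% of all genes were, with 4 of 9 under an unadjusted p of 0.05 after PBS and 1 of 9 (SOX6) after SCF. When the library labelled sgEGR1 SCF replicate 3 was also dropped, the genes called rose from 4 to 51 after PBS (0.322% of all genes) and from 2 to 38 after SCF (0.240%). None of the 9 regulators was among them, and 4 and 3 of 9 had an unadjusted p under 0.05. For these counts under an unadjusted p no share of all genes was taken, so they are not read as a guide effect. No regulator was free of overlap between guides, against 9.31% of all genes after PBS and 7.14% after SCF. BCL11A differed between guides by -0.16 ± 0.152 on the log2 scale after PBS and by -0.08 ± 0.152 after SCF. KLF1 differed by 0.00 ± 0.0562 and 0.05 ± 0.0562, and ZBTB7A by -0.02 ± 0.0875 and 0.04 ± 0.0871, in that order. NFIX differed by 0.10 ± 0.0643 after PBS and by 0.07 ± 0.0642 after SCF. It was higher in the sgEGR1 library of all 6 same-numbered pairs, and the share of all genes with 1 direction throughout was not taken. In the fit that pairs the guides by replicate block, NFIX differed by 0.10 ± 0.0396 (unadjusted p = 0.0269, adjusted p = 0.420) and 0.07 ± 0.0395 (adjusted p = 0.904). In that fit BCL11A differed by -0.16 ± 0.0744 (adjusted p = 0.506) and -0.08 ± 0.0751 (adjusted p = 0.947), and SOX6 by -0.37 ± 0.115 (adjusted p = 0.330) and -0.31 ± 0.113 (adjusted p = 0.765). After SCF and without the library that goes against its label, the differences were -0.20 for BCL11A, -0.19 for MYB, 0.16 for HIC2, 0.09 for NFIX, 0.05 for KLF1, 0.02 for NFIA and 0.01 for ZBTB7A, none of which passed.

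Whether the guide altered the response was tested by the interaction, the SCF log2 fold change under sgEGR1 less the one under sgControl. It was called for 0 of the 9 regulators by edgeR and by DESeq2, with 0 under an unadjusted p of 0.05, and for 0% of all genes by edgeR, with or without the term for replicate 1. BCL11A had an interaction of 0.07 with a 95% interval of -0.394 to 0.544 on the log2 scale, and ZBTB7A one of 0.07 with an interval of -0.202 to 0.336. KLF1 had 0.05 (-0.124 to 0.223), NFIA -0.02 (-0.196 to 0.146), NFIX -0.03 (-0.230 to 0.166) and HIC2 0.02 (-0.274 to 0.313). MYB had 0.06 (-0.456 to 0.571) and SOX6 0.05 (-0.887 to 0.994), the widest intervals of the regulators above 1 CPM. Without the library that goes against its label the interactions were -0.04 (-0.524 to 0.436) for BCL11A, 0.04 (-0.255 to 0.334) for ZBTB7A and 0.13 (-0.107 to 0.363) for HIC2. None of the 9 was called there. The interval of BCL11A with the term for replicate 1 was -0.151 to 0.296.

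The replicate number was compared in the same way. Replicate 1 was already known from earlier results of these data to stand apart. The p-values of this contrast are therefore no independent test of that difference. Replicate 1 was lower than replicates 2 and 3 for SOX6 by 0.76 ± 0.0884 (SE) on the log2 scale (adjusted p = 4.41e-05). It was lower for MYB by 0.41 ± 0.0403 (adjusted p = 1.02e-05) and for BCL11A by 0.35 ± 0.0559 (adjusted p = 0.000568). NFIX was higher in replicate 1 by 0.12 ± 0.0292 (adjusted p = 0.00785). These were 4 of 9 regulators called, where 26.6% of all genes were. MYB ranged from 174 to 225 CPM in the 4 replicate 1 libraries and from 249.9 to 283 in the other 8. SOX6 ranged from 5.79 to 8.66 CPM in replicate 1 and from 9.63 to 14.4 in the others. Neither gene overlapped, and the share of all genes without overlap in this split was not taken. ZBTB7A, KLF1, NFIA, HIC2 and LIN28B were not called in this contrast, with KLF1 at -0.08 (adjusted p = 0.0631) and NFIA at 0.08 (adjusted p = 0.0759). DESeq2 called KLF1 (adjusted p = 0.0254) and NFIA (adjusted p = 0.0481) as well.

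**Figure D4:**
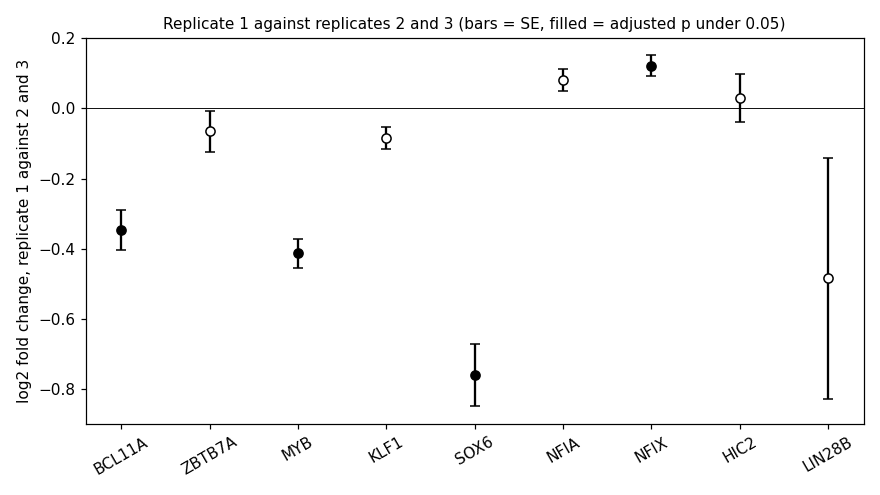
Log2 fold change of replicate 1 against replicates 2 and 3 for each regulator (vertical axis), from the fit that adds a term for replicate 1. Bars are the SE, and filled points have an adjusted p under 0.05. SOX6 lies lowest at -0.76, MYB and BCL11A follow, and NFIX is the filled point above 0. Replicate 1 was known from earlier results of these data to stand apart.

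The globin genes that these regulators control were compared beside them. HBG1 and HBG2 are near-identical copies whose reads can be split between them, and HBG1 was listed at 0 in sgControl PBS replicate 1 while HBG2 had 771 counts there, so the sum is given. The summed gamma-globin level was 27.9, 90.3 and 85.6 CPM in sgControl PBS and 65.2, 82.0 and 107 in sgControl SCF. It was 135, 229 and 259 CPM in sgEGR1 PBS and 146, 228 and 103 in sgEGR1 SCF. The sgEGR1 libraries lay above all sgControl libraries except for the library labelled sgEGR1 SCF replicate 3, which was inside the sgControl range here as it was for EGR1. Gamma-globin made up 0.438% ± 0.201 of the summed HBG1, HBG2 and HBB level in sgControl PBS (SD, n = 3) and 1.37% ± 0.450 in sgEGR1 PBS. After SCF the share was 0.576% ± 0.0892 in sgControl and 1.06% ± 0.410 in sgEGR1 cells. The sgControl PBS share was 0.206% in replicate 1, where HBG1 was listed at 0, and 0.569% and 0.538% in replicates 2 and 3, and HBG2 in replicate 1 (27.9 CPM) was not above its level in replicates 2 and 3 (34.6 and 31.7 CPM). HBG2 differed between guides after PBS by 1.30 ± 0.286 on the log2 scale (unadjusted p = 0.000652, adjusted p = 0.879) and HBG1 by 1.84 ± 0.801 (adjusted p = 0.999), and neither passed. The term for replicate 1 gave HBG2 1.28 there (adjusted p = 0.0936). After SCF the HBG2 difference was 0.72 ± 0.282 (adjusted p = 1.00), and 0.94 ± 0.276 (adjusted p = 1.00) without the library that goes against its label. With that library dropped and the term for replicate 1 added, HBG2 was called as higher in sgEGR1 cells under both treatments (1.26 ± 0.146, adjusted p = 0.00513, with PBS and 1.00 ± 0.157, adjusted p = 0.0262, with SCF), and HBG1 was not (2.04, adjusted p = 0.184, and 1.49, adjusted p = 0.521). This fit was chosen after the data were seen. The dropped library had the lowest summed gamma-globin level of its group. The larger SCF difference without it therefore follows from leaving it out and is no independent test. HBB, the adult beta-globin gene, ranged from 13398 to 16032 CPM over the 12 libraries, with a guide difference of 0.00 ± 0.0737 after PBS. Of the list of 11 globin genes, which includes the alpha-globin chaperone AHSP, 0 were called in any of the 5 comparisons, with 1 under an unadjusted p of 0.05 for SCF under each guide, and the smallest unadjusted p for SCF in sgControl cells was that of HBE1, the embryonic epsilon-globin gene (-0.80, adjusted p = 0.188). HBE1 was near the limit of detection, with totals of 60 counts in sgControl PBS and 41 in sgControl SCF. In sgEGR1 cells its mean went the other way, from 0.814 CPM after PBS to 1.07 CPM after SCF. When the term for replicate 1 was added, the alpha-globin gene HBA1 fell by 0.21 in sgControl cells (adjusted p = 0.0102) and by 0.18 in sgEGR1 cells (adjusted p = 0.0270) after SCF, and HBA2 by 0.27 in sgEGR1 cells (adjusted p = 0.0395). With the term, 1 of the 11 was called in sgControl and 2 in sgEGR1 cells, where 8.32% and 8.56% of all genes were. HBA1 and HBA2 are also near-identical copies.

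**Figure D5:**
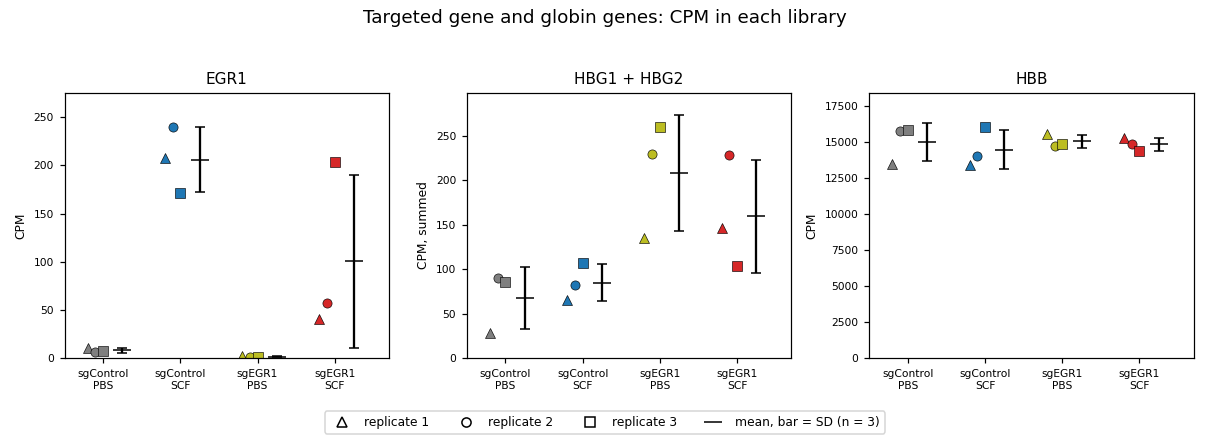
CPM (linear axes from 0) of EGR1, of HBG1 and HBG2 summed, and of HBB in each of the 12 libraries, by group, with the mean and SD of 3 libraries. In sgEGR1 SCF the square of replicate 3 lies at 204 CPM for EGR1 and at 103 CPM for gamma-globin, apart from its 2 group mates and within the sgControl ranges.

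Of 14 other genes linked to fetal globin silencing, 12 were tested. For SCF in sgControl cells edgeR called 0 of the 12, with 1 under an unadjusted p of 0.05, which was BCOR, a corepressor (0.24, adjusted p = 0.0777). In sgEGR1 cells NR2C2 alone was called. NR2C2, the nuclear receptor also known as TR4, stood at 108, 118 and 120 CPM in sgEGR1 PBS and at 80.5, 95.9 and 83.9 in sgEGR1 SCF. It fell by 0.41 ± 0.0844 there (adjusted p = 0.0235), and in sgControl cells its value was -0.10 (adjusted p = 0.682). The difference between these responses was not called (interaction -0.31, adjusted p = 1.00). Of 19 alternatives 15 called NR2C2 in sgEGR1 cells, and the call was lost without sgEGR1 PBS replicate 2 or 3 or sgEGR1 SCF replicate 1 or 3, with an adjusted p of up to 0.103. BCOR was called with the term for replicate 1 and rose by 0.24 in sgControl cells (adjusted p = 0.00543). It was 1 of 12 called there, where the term called 8.32% of all genes.

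Partner genes were counted from lists. Of 14 subunits of NuRD, the deacetylase and remodelling complex that BCL11A and ZBTB7A recruit, 0 were called in any comparison, with 3 and 2 under an unadjusted p of 0.05 for SCF in sgControl and sgEGR1 cells, and SCF log2 fold changes in sgControl cells ran from -0.12 to 0.11. MTA2 had the smallest unadjusted p (0.11, adjusted p = 0.125). With the term for replicate 1, MTA2 rose by 0.11 in sgControl cells (adjusted p = 0.0341) and MTA1 fell by 0.17 in sgEGR1 cells (adjusted p = 0.0350). Each was 1 of 14 called. The term called 8.32% of all genes in sgControl and 8.56% in sgEGR1 cells, and these shares are the baseline for the lists below too. Of 9 erythroid partner factors 0 were called, with 0 and 1 under an unadjusted p of 0.05 for SCF in sgControl and sgEGR1 cells and TAL1 at -0.08 (adjusted p = 0.462) for SCF in sgControl cells. With the term, CBFA2T3, the corepressor ETO2, fell by 0.24 in sgEGR1 cells (adjusted p = 0.0198), as 1 of 9 called. Of 9 genes of the fetal-stage RNA and let-7 axis 7 were tested and 0 called, with 2 and 0 under an unadjusted p of 0.05 for SCF in sgControl and sgEGR1 cells and DICER1, the miRNA-processing nuclease, at 0.21 (adjusted p = 0.229). With the term, TRIM71, a let-7 target, rose by 0.72 in sgControl cells (adjusted p = 0.0170), as 1 of 7 called. Of 11 family relatives of the regulators 7 were tested and 0 called, with 0 under an unadjusted p of 0.05 and BCL11B at -0.63 (adjusted p = 0.617) for SCF in sgControl cells. BCL11B held only 3 to 14 counts a library, down to the floor of 3. In sgEGR1 cells its mean went the other way, from 0.236 CPM after PBS to 0.371 after SCF. Among the 8 erythroid markers SLC4A1, the band 3 anion exchanger, fell by 0.31 in sgEGR1 cells after SCF (adjusted p = 0.0471), a call that 8 of 19 alternatives kept, with an adjusted p of up to 0.170, and that was lost without any 1 of 9 libraries, which were all except sgControl PBS replicate 1, sgControl SCF replicate 1 and sgEGR1 SCF replicate 1. EPOR, the erythropoietin receptor, was called with the term for replicate 1 and fell by 0.13 in sgControl cells (adjusted p = 0.0446) and by 0.14 in sgEGR1 cells (adjusted p = 0.0275), and ALAS2, the first enzyme of haem synthesis, fell by 0.18 in sgEGR1 cells (adjusted p = 0.0319). With the term, 1 of the 8 markers was called in sgControl cells and 3 in sgEGR1 cells, where SLC4A1 was among them. The lower BCL11A values after SCF were called only in fits with the replicate block or a term for replicate 1. Whether these erythroid markers have a part in them was not tested.

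The genes whose log2 CPM followed each regulator most closely over the 12 libraries were named by Pearson's r among genes with a mean of at least 10 CPM. These values are descriptions, since the libraries share the replicate 1 difference, the treatment and the guide. BCL11A went with PNPLA6 (r = 0.962) and S1PR4 (r = 0.944). ZBTB7A went with the tubulin pseudogene TUBBP1 (r = 0.951), which shares sequence with its parent genes, and with LMNB2 (r = 0.947). MYB went with MACROH2A1 (r = 0.986) and HADHB (r = 0.975), and SOX6 with TMC8 (r = 0.959) and MACROH2A1 (r = 0.957). KLF1 went with KCNN4 (r = 0.939) and UBB (r = 0.913), NFIA with SKI (r = 0.899) and DYRK1A (r = 0.891), and NFIX with NUMA1 (r = 0.980) and PCNT (r = 0.953). HIC2 went with TCFL5 (r = 0.823) and LAMP2 (r = 0.796), and LIN28B, at 7 to 26 counts, with SLC45A4 (r = 0.894) and METTL16 (r = 0.850). Among the regulators themselves, MYB and SOX6 had the highest r (0.957) and SOX6 and NFIX the lowest (-0.771), both pairs of genes that differ between replicate 1 and the rest. BCL11A and KLF1 had an r of 0.784.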

How the data were processed

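RNA was measured in 12 HUDEP-2 libraries (4 groups of 3, grouped by title). The authors used HISAT on hg38, and the estimated counts they deposited were derived from StringTie coverage, whole and not scaled for depth or length. Which annotation release was used and whether counting was stranded were not given in the sources used here, and the labels and methods name different library kits. The column code for the second guide was assigned to sgEGR1 by elimination. Here edgeR 4.0.16 (filterByExpr, TMM, quasi-likelihood test, 1 coefficient per group, all libraries, Benjamini-Hochberg over 15492 genes) called genes at an adjusted p under 0.05. Depth was 23.5 to 32.04 megacounts, and floors of 3 counts cover counting error only. Alternatives were DESeq2 1.42.0, other scaling, filters and libraries, a replicate block and a term for replicate 1. Exon lengths came from GENCODE on hg38. Residuals of same-numbered libraries correlated at 0.232, 0.103 and 0.119 between guides after PBS and at 0.269, 0.102 and 0.126 after SCF, all over 0.1. Differently numbered libraries were not correlated. Since replicate 1 lay apart in each group, such values can arise without pairing. They cannot show that the numbers pair the guides, and the replicate block pairs them by number alone. The code was tested on simulated data. The regulators, the lists and the term for replicate 1 were chosen with earlier results of these data known. Named were all 9 regulators, EGR1, HBG1, HBG2 and HBB, list genes called (otherwise the smallest unadjusted p), and the 2 genes most alike in level. HBA1, HBA2, MTA1, CBFA2T3, TRIM71, EPOR and ALAS2 were named for their calls with the term for replicate 1, after their values were seen. A few list genes and 1 guide sequence are not reported here, and the lists were counted without those genes.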

Additional observations from a re-analysis of the deposited data

How the results depend on the processing

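The number of regulators called for SCF depended on how replicate 1 was treated. In sgControl cells it was 0, and it became 1 with the replicate block, 1 with the term for replicate 1, 1 with that term once sgEGR1 SCF replicate 3 was left out, and 2 with that term in DESeq2 (BCL11A and KLF1). In sgEGR1 cells it was 0, and it became 1 with DESeq2, 1 with only the groups compared, 1 with the replicate block, 2 with the term for replicate 1, 1 with that term once sgEGR1 SCF replicate 3 was left out, and 3 with that term in DESeq2 (BCL11A, ZBTB7A and NFIX). Leaving out 1 library at a time gave 0 to 1 in sgEGR1 cells (ZBTB7A without sgControl SCF replicate 3) and 0 in sgControl cells. The 2 fits that join the term with a left-out library or with DESeq2 were chosen after seeing the data. The replicate block called BCL11A in both (adjusted p = 0.00789 and 0.0252). Same-numbered PBS and SCF libraries correlated at 0.00766 to 0.272, not all over 0.1, so the block pairs the treatments, like the guides, by number alone. The block changed no call of a regulator between guides or for the interaction, and under it 2 genes in all were called in each comparison of the guides. No setting called a regulator between guides or for the interaction. Genes called in all for SCF in sgControl cells were 448, against 759 with DESeq2, 192 with only the groups compared, 1184 with the block and 1289 with the term for replicate 1. In sgEGR1 cells they were 402, 773, 250, 1235 and 1326 in that order, and 690 with replicates 2 and 3 only. Leaving out 1 library at a time gave 194 to 448 and 176 to 428. Between guides after PBS, after SCF and for the interaction 0 genes were called, against 20, 5 and 4 with DESeq2 and 101, 25 and 8 with the term in DESeq2, and 51, 38 and 2 with the term once sgEGR1 SCF replicate 3 was left out. Depth limits LIN28B, at 7 to 26 counts a library, whose 95% interval for SCF in sgControl cells ran from -0.668 to 1.29.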
